A study of Mus musculus with 6 samples.

Results

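The 9 genes described here encode sensors of double-stranded RNA and of other foreign or misplaced nucleic acid, and the proteins that pass their signal on or hold it back. They were taken by name from a table of 55471 mouse genes: the helicase sensors Ifih1, Ddx58 and Dhx58, the endosomal receptor Tlr3, the Z-form nucleic acid sensor Zbp1, the RNA-activated kinase Eif2ak2, the RNA editing enzyme Adar, the adaptor Mavs and the signalling kinase Tbk1. All 9 had enough reads to be tested, among 13044 tested genes. Transcripts were counted by RNA sequencing in 3 libraries of Setd1a knockout cells and 3 libraries of control cells labelled wild type. Both groups are a cultured mouse undifferentiated pleomorphic sarcoma line, a soft-tissue tumour of mesenchymal appearance, labelled metastatic and kept in serum-containing medium. Sample titles also carry a different tag in each group, which the labels do not explain and whose part cannot be told apart from that of the genotype. The labels do not say how the knockout was made, whether it is 1 clone or a pool, or whether replicates were separate cultures, so the spread behind every p-value is that of these libraries and may be technical.

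Cells recognise viral or misplaced cellular RNA by its double-stranded form. In the cytoplasm, RIG-I (from Ddx58) and MDA5 (from Ifih1) bind it and switch on MAVS on the mitochondrial surface, which activates the kinase TBK1 and through it the factor IRF3 and the interferon genes. TLR3 detects double-stranded RNA inside endosomes, PKR (from Eif2ak2) halts translation by phosphorylating eIF2 alpha, ZBP1 can start cell death through RIPK3, and ADAR edits adenosines in cellular duplexes so that MDA5 and PKR do not respond to them. Many of these sensors are themselves induced by interferon, whereas MAVS and TBK1 are known as largely constitutive.

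Library totals lay between 17749533 and 18272622 reads assigned to genes, and levels are given as CPM, counts scaled to a common library size adjusted by TMM. Setd1a itself, the histone H3 lysine 4 methyltransferase named in the knockout label, was detected in every library, at 53.2, 68.7 and 56.3 CPM in the knockout and 71.0, 75.3 and 73.5 CPM in the control (exact two-sided permutation p = 0.1, the smallest that 3 against 3 allows). Counts per gene do not show whether that transcript was disrupted, and 52.3% of its exonic bases are shared with other annotated genes. All 8 mesenchymal markers were detected, with summed levels of 6559 to 7416 CPM in the knockout and 7544 to 8395 CPM in the control. Most of each sum was Vim alone, at 5175 to 5824 CPM in the knockout and 5642 to 6564 CPM in the control, ranges that overlap. Of 12 immune markers 2 passed the low-count filter, Cd68 and Flt3; Adgre1, Cd3e, Siglech and Ncr1 had no reads in any library, and the list summed to 9.64, 15.8 and 11.1 CPM in the knockout and 8.69, 9.72 and 9.36 CPM in the control. The epithelial list, 4 of 8 tested, summed to between 50.2 and 95.6 CPM in the knockout and between 52.9 and 91.4 CPM in the control, and the endothelial list, 1 of 6 tested, to between 2.89 and 4.35 CPM in the knockout and between 1.33 and 2.63 CPM in the control. In the edgeR test blocked on the replicate number, 1 epithelial marker was called higher (adjusted p under 0.05) and 0 markers of the other lists were called. Of all tested genes, 1.43% were called higher in that test. The part of these marker differences in the results was not tested. In bulk RNA, a change in the number of cells that express a gene and a change in RNA per cell cannot be told apart.

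Promoter windows of several sensors carry paired GAAA-type repeats, the kind of sequence that interferon regulatory factors are known to bind, and these stretches are shown as the sequence context of the sensor genes. RefSeq promoter windows of build GRCm38.p6, covering 250 bases before and 50 after the annotated start, were at hand for 7 of the 9 genes (Dhx58 and Zbp1 had none in the table). The motif GAAANNGAAA, searched on both strands, was found in the windows of Ifih1, Ddx58 and Eif2ak2, and in 3.44% of all 32851 windows (3.99% of genes). The shorter GAAANNGAA, which the longer motif contains, was also found in window 3 of the 3 Adar windows, whose first 25 bases after the start were in no GENCODE transcript of the gene, and occurred in 8.56% of all windows (9.76% of genes). Neither was found in the windows of Mavs, Tbk1 or Tlr3, which says only that these letters are absent there. The first 25 bases after the Tbk1 start were likewise in no GENCODE transcript of that gene. Another motif searched, TTCNNNGAA, was found in the Eif2ak2 window and in Adar window 3, and in 8.30% of all windows (9.55% of genes). The motifs were chosen after the windows had been read, so a match is a description. For the GAAA-type motifs, the 30 bases around a match near the start of Ifih1, Ddx58, Eif2ak2 and Adar are given 5′ to 3′ along the gene, with the match in capitals. The Ddx58 match lies on the opposite strand.
Ifih1 (chr2:62646206-62646235, minus strand, match at bases 33 to 42 after the start): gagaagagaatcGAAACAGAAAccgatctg
Ddx58 (chr4:40239804-40239833, minus strand, bases 3 to 12): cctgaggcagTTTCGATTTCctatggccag
Eif2ak2 (chr17:78882535-78882564, minus strand, bases 19 to 28): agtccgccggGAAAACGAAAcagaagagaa
Adar (chr3:89730738-89730767, plus strand, shorter motif, bases 34 to 42): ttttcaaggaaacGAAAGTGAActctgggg
In the 250 bases before the start, the shorter GAAANNGAA had 1 match in Ifih1 and 1 in Adar window 3, and 0 in Ddx58, Tlr3, Eif2ak2, Mavs, Tbk1 and the other Adar windows. A relation between matches and the fitted change was not tested. The 250 bases of Ifih1 and Tbk1, the genes with the largest and the smallest fitted change, are given as examples.
Ifih1 (chr2:62646256-62646505, minus strand): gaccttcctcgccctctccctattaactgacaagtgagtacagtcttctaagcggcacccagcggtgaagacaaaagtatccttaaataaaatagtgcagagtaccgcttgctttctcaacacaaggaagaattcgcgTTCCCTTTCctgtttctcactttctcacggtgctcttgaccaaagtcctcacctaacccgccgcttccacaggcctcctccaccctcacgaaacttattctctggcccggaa
Tbk1 (chr10:121586795-121587044, minus strand): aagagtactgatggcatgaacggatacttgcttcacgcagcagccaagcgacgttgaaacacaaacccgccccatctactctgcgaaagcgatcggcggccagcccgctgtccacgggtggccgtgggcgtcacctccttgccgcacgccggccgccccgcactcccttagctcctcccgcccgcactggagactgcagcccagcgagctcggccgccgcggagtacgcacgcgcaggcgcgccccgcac

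The MDA5 gene Ifih1 (ENSMUSG00000026896, chromosome 2, 62595798 to 62646255, minus strand, GRCm38) was higher in every knockout library than in every control library, and it was the only one of the 9 with that separation. Its level was 34.1, 75.3 and 63.1 CPM in knockout replicates 1, 2 and 3, against 28.7, 18.9 and 13.6 CPM in control replicates 1, 2 and 3. The closest pair of values was that of knockout replicate 1 and control replicate 1. Means were 57.5 ± 21.1 CPM in the knockout and 20.4 ± 7.63 CPM in the control (SD, n = 3 each; exact two-sided permutation p = 0.1). Among all tested genes, 7.49% had every knockout library above every control library, and 7.77% had every knockout library below. The edgeR quasi-likelihood test without regard to replicate numbers gave a log2 change of 1.49 ± 0.31 (SE) with an adjusted p of 0.180 (Benjamini-Hochberg over all tested genes). Blocked on the replicate number, the fit gave a log2 change of 1.48 ± 0.30 (SE), a 2.80-fold increase, with an adjusted p of 0.0419. Of all tested genes, 2.28% passed this blocked test. The unadjusted edgeR p of Ifih1 was 0.00061 without the block and 0.00071 with it, so the block did not lower it. Without pair 3 that blocked test called 0 of all tested genes, so Ifih1 was not called either (2.16-fold, adjusted p = 0.130). Without pair 1 the blocked test gave 4.28-fold for Ifih1 and without pair 2 2.35-fold (adjusted p = 3.23e-18 and 0.00583). Without pair 1, 3.87% of tested genes were called higher, and without pair 2, 1.06%.

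The RIG-I gene Ddx58 (chromosome 4, 40203773 to 40239828, minus strand) was high in 2 of the 3 knockout libraries. It stood at 37.5, 131 and 115 CPM in knockout replicates 1, 2 and 3, against 55.1, 50.2 and 28.2 CPM in the control replicates. Knockout replicate 1 lay below control replicates 1 and 2, so the groups overlapped. The log2 change was 1.09 ± 0.39 (SE) without the block and 0.98 ± 0.37 with it, and edgeR's adjusted p was 0.393 and 0.189. Dhx58 (chromosome 11, 100694884 to 100704271, minus strand) encodes LGP2, a related helicase without the signalling domains of the other two, which modulates them. Its 7.27, 22.1 and 24.6 CPM in the knockout stood against 13.6, 7.98 and 6.89 CPM in the control, again with knockout replicate 1 among the control values. The log2 change was 0.92 ± 0.40 (SE) without the block (edgeR adjusted p = 0.480). Of the exonic bases of Dhx58, 4.31% are shared with the antisense gene Dhx58os, which held 2 to 4 reads per knockout library and 6 to 8 per control library.

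Ratios between the helicase genes were formed within each library. Per exonic base, Ifih1 reached 0.786, 0.494 and 0.473 of the Ddx58 level in knockout replicates 1, 2 and 3, against 0.449, 0.326 and 0.416 in the control replicates. The groups did not overlap, although knockout replicate 3 and control replicate 1 lay close together. Dhx58 stood at 0.531, 0.732 and 0.975 of the Ifih1 level in the knockout and at 1.18, 1.05 and 1.26 of it in the control. Both ratios had an exact two-sided permutation p of 0.1 and, over the 5 ratios computed, an adjusted p of 0.167. The lengths used were all annotated exonic bases, 8165 for Ifih1 and 3272 for Dhx58. In CPM, Ifih1 was above Dhx58 in every library, so these ratios do not show which transcript was more numerous. For Dhx58 over Ddx58 the ratios overlapped, at 0.362 to 0.461 in the knockout and 0.343 to 0.532 in the control (exact permutation p = 0.6, adjusted p = 0.6).

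**Figure D1:**
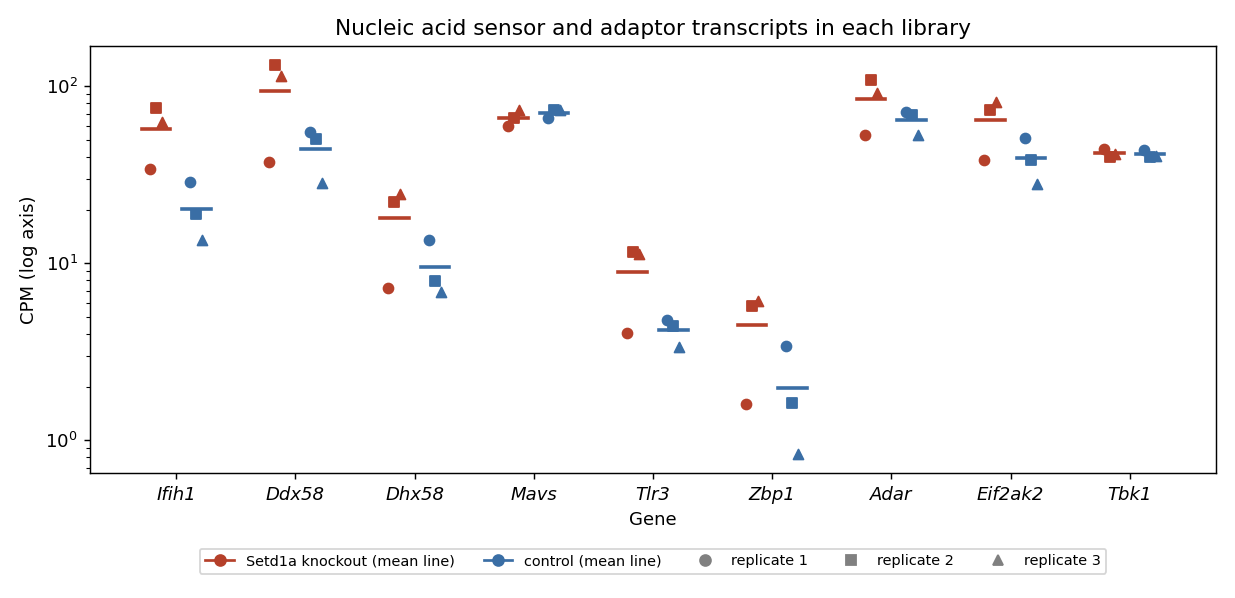
Level of each gene in each library, in CPM on a log axis, with knockout libraries in red left of control libraries in blue; symbols mark the replicate number and lines the mean of 3 libraries. All 3 knockout libraries lie above all control libraries for 1 of the 9 genes, Ifih1, as for 7.49% of tested genes. Mavs and Tbk1 stay within 59.9 to 73.2 and 39.9 to 44.1 CPM in all 6 libraries.

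Tlr3 and Zbp1, sensors outside the helicase family, were present at low levels. Tlr3 (chromosome 8, 45395665 to 45411080, minus strand) had 73, 208 and 204 reads in the knockout libraries and 86, 79 and 60 in the controls, or 4.02, 11.5 and 11.2 CPM against 4.76, 4.41 and 3.36 CPM. Knockout replicates 2 and 3 exceeded every control, and replicate 1 fell within the control range. The log2 change was 1.09 ± 0.35 (SE) without the block with an edgeR adjusted p of 0.335, and the blocked fit gave 2.01-fold with an adjusted p of 0.112. Of its exonic bases 7.32% are shared with the antisense gene Gm45542, which had no reads. Zbp1 (chromosome 2, 173206612 to 173218923, minus strand) had 29, 104 and 111 reads in the knockout and 62, 29 and 15 in the control. Its 1.60, 5.77 and 6.10 CPM in the knockout and 3.43, 1.62 and 0.841 CPM in the control spanned 2.71 on the log2 scale, the widest range of the 9 genes. The log2 change of 1.19 ± 0.54 (SE) had an edgeR adjusted p of 0.499, and counting error is wide at so few reads.

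Eif2ak2 and Adar, the kinase PKR and the editing enzyme that limits its activation, also had their highest levels in knockout replicates 2 and 3, with smaller fitted changes than the other sensors. Eif2ak2 (chromosome 17, 78852564 to 78882573, minus strand) stood at 38.2, 73.9 and 81.1 CPM in the knockout, against 51.2, 38.5 and 28.1 CPM in the control. Its log2 change was 0.71 ± 0.28 (SE) without the block (edgeR adjusted p = 0.420) and 0.69 ± 0.28 with it (adjusted p = 0.214). Adar (chromosome 3, 89715022 to 89753446, plus strand) had 52.9, 109 and 92.2 CPM in the knockout and 72.0, 69.1 and 52.9 CPM in the control. Knockout replicate 1 and control replicate 3 shared the lowest level. The log2 change was 0.39 ± 0.23 (SE) with an edgeR adjusted p of 0.635. The table has 1 value for Adar, so the interferon-inducible p150 form and the constitutive p110 form were not separated. Chrnb2 on the opposite strand shares 16.8% of the Adar exonic bases and held 0.442 ± 0.202 CPM in the knockout and 0.334 ± 0.0553 CPM in the control (SD, n = 3 each).

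Mavs and Tbk1, the adaptor and kinase downstream of the helicases, differed little between groups. Mavs (chromosome 2, 131234063 to 131248025, plus strand) stood at 59.9, 66.3 and 73.2 CPM in the knockout and 66.1, 73.1 and 73.1 CPM in the control. Its log2 change was -0.09, with a 95% interval of -0.34 to 0.16 (edgeR adjusted p = 0.900). Tbk1 (chromosome 10, 121546455 to 121586787, minus strand) had 44.1, 40.0 and 41.4 CPM in the knockout and 43.7, 39.9 and 40.2 CPM in the control. The log2 change was 0.02, with a 95% interval of -0.22 to 0.26 (edgeR adjusted p = 0.984). The groups overlapped for both genes. The intervals leave no room for a change as large as the fitted one of Ifih1, whose interval was 0.81 to 2.18, but they do not show that the levels were equal.

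Counted together, 0 of the 9 genes passed the unblocked test and 1, Ifih1, passed the blocked one, as an increase; 0 fell in either. Of all tested genes, 0.0% were called in the unblocked test, 1.43% were called higher and 0.851% lower in the blocked test. At an unadjusted p under 0.05 without the block, 5 of the 9 were higher in the knockout (Ifih1, Ddx58, Dhx58, Tlr3 and Eif2ak2) and 0 lower, against 5.50% of tested genes higher. The median log2 change was 0.92 over the 9 genes and 0.00066 over all tested genes. Without knockout replicate 1, the unblocked test called Ifih1 3.40-fold and Tlr3 2.73-fold higher (edgeR adjusted p = 0.0440 and 0.0437), where 0.227% of tested genes were called higher. The blocked test without pair 1 called 7 of the 9, all but Mavs and Tbk1, where 3.87% of tested genes were called higher; with 2 pairs it has 1 residual degree of freedom. DESeq2 without the block called 0 of the 9, with an adjusted p of 0.0545 for Ifih1, the smallest of the 9, and called 0.713% of tested genes higher.

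**Figure D2:**
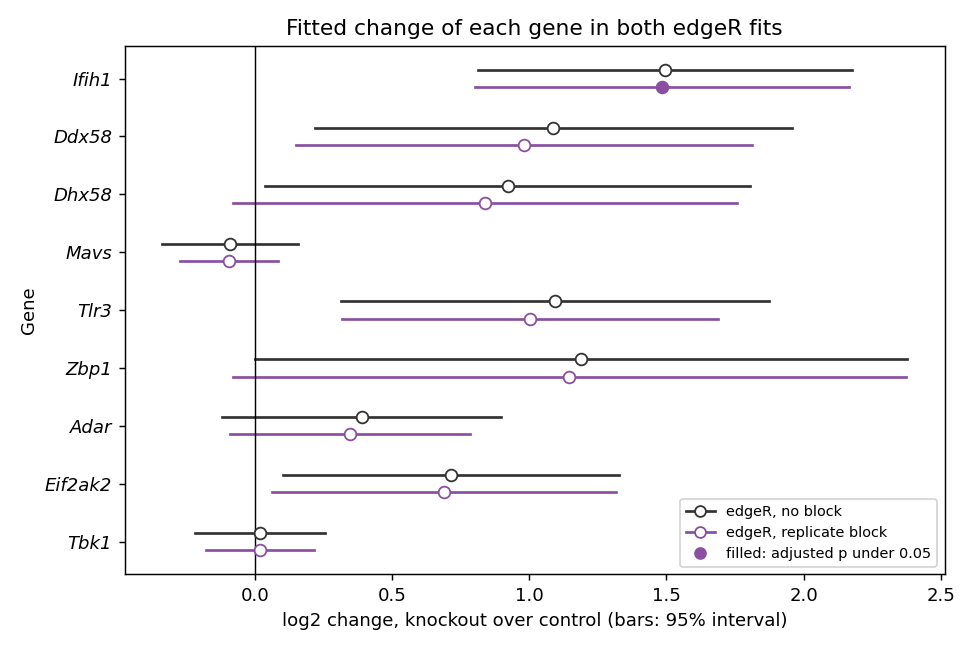
Fitted log2 change of each gene, knockout over control, with its 95% interval, in edgeR without (black) and with (purple) the replicate number as a block; a filled point marks an adjusted p under 0.05. Ifih1 in the blocked fit is the 1 filled point, and the intervals of Mavs and Tbk1 lie between -0.34 and 0.26.

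The difference between knockout and control depended on which replicate number was compared. In pair 1 the log2 ratio of knockout to control was -0.55 for Ddx58, -0.89 for Dhx58, -0.24 for Tlr3, -1.05 for Zbp1, -0.44 for Adar and -0.42 for Eif2ak2, against 0.25 for Ifih1. In pair 2 the same 7 genes had ratios between 0.66 for Adar and 1.99 for Ifih1, and in pair 3 between 0.80 for Adar and 2.71 for Zbp1. Thus 6 of the 9 genes had a ratio below 0 in pair 1 and above 0 in pairs 2 and 3, a combination found in 9.75% of tested genes. Mavs stood at -0.14, -0.14 and 0.0021 in pairs 1, 2 and 3, and Tbk1 at 0.013, 0.0036 and 0.041. A log2 ratio over 1 was reached by 0 of the 9 in pair 1, 5 in pair 2 and 6 in pair 3, against 1.72%, 2.21% and 2.64% of tested genes. A ratio above 0 was found for 2, 8 and 9 of the 9 in pairs 1, 2 and 3, against 50.1%, 49.4% and 47.9% of tested genes; 49.9%, 50.6% and 52.1% of tested genes lay below 0. Ratios of single libraries have no replicate check.

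**Figure D3:**
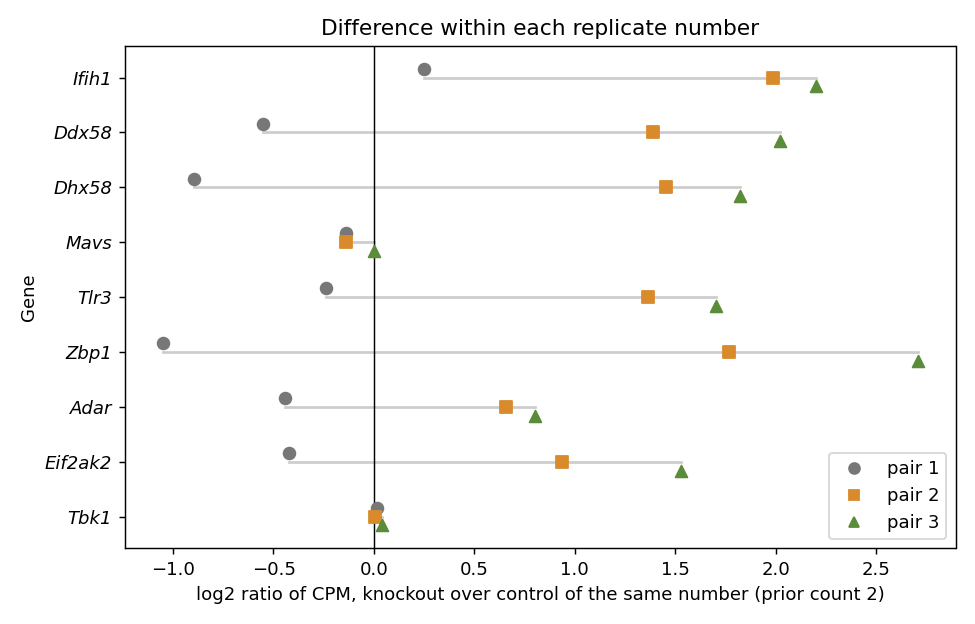
Log2 ratio of knockout to control CPM for each gene within replicate numbers 1 (grey circles), 2 (orange squares) and 3 (green triangles). Pair 1 lies below 0 for 7 of the 9 genes, Mavs included, against 49.9% of tested genes. Ifih1 and, by at most 0.041, Tbk1 are above 0 in all 3 pairs, as are 19.9% of tested genes.

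Both libraries of number 1 took part in this. For Ddx58, Dhx58, Tlr3, Zbp1, Adar and Eif2ak2, the libraries below knockout replicates 2 and 3 came in 1 order: control replicate 1, control replicate 2, knockout replicate 1 and control replicate 3. That full order was seen in 0.429% of tested genes, and it was picked out after the values were seen. It rests on near ties for Zbp1 and Adar. For Zbp1, control replicate 2 and knockout replicate 1 had 29 reads each (1.62 and 1.60 CPM). For Adar, knockout replicate 1 and control replicate 3 both stood at 52.9 CPM. The places of these libraries are therefore not firm. For Ifih1 knockout replicate 1 moved up to stand above control replicate 1. The mean log2 CPM of the 9 genes was 4.27, 5.36 and 5.34 in knockout replicates 1, 2 and 3, and 4.65, 4.31 and 3.91 in control replicates 1, 2 and 3. Across all tested genes the same mean ran from 4.30 to 4.34 in the knockout libraries and from 4.28 to 4.31 in the control libraries.

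Set beside each other per kilobase of exon, Mavs had the highest level of the 9 in both groups, at 19.9 ± 1.99 CPM per kb in the knockout and 21.2 ± 1.21 CPM per kb in the control (SD, n = 3 each). The length was that of all annotated exonic bases, so the order depends on the annotation. In mean CPM, Ddx58 at 94.7 and Adar at 84.8 stood above Mavs at 66.5 in the knockout, while Mavs at 70.7 was highest in the control. Per kb, Mavs was followed in the knockout by Ddx58 at 13.4 ± 7.12, Eif2ak2 at 12.6 ± 4.49, Tbk1 at 10.7 ± 0.532, Adar at 10.4 ± 3.56, Ifih1 at 7.04 ± 2.59 and Dhx58 at 5.50 ± 2.87 CPM per kb. From Mavs down to Dhx58, the library ranges of neighbours overlapped. Tlr3 at 1.71 ± 0.817 and Zbp1 at 1.27 ± 0.712 CPM per kb came last, with ranges that overlapped each other. The ranges of Tlr3 and Dhx58 all but touched, at 2.217 CPM per kb in the highest Tlr3 library and 2.221 in the lowest Dhx58 library. In the control Mavs stood clear of Tbk1 at 10.6 ± 0.538 CPM per kb, and Tbk1 of Adar at 7.97 ± 1.27 CPM per kb. Eif2ak2 at 7.68 ± 2.26, Ddx58 at 6.31 ± 2.03, Dhx58 at 2.90 ± 1.10 and Ifih1 at 2.50 ± 0.934 CPM per kb followed, each overlapping its neighbour. Tlr3 at 0.802 ± 0.140 CPM per kb was apart from Ifih1, and Zbp1 at 0.556 ± 0.377 CPM per kb was not apart from Tlr3. Per kb, Ifih1 thus ranked below Dhx58 in the control and above it in the knockout, although neighbouring ranges overlapped in both groups.

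The profile of each gene over the 6 libraries, as log2 CPM centred on its own mean, was compared with those of 9887 other genes with a mean of at least 5 CPM, by root mean square difference. This was done for the 7 sensors that spanned more than 1 on the log2 scale. Nearest to Ifih1 were the chemokine gene Ccl5, Ifit1 and Oasl1, at differences of 0.156, 0.172 and 0.224, where the median gene stood at 0.893. Among the nearest to Ddx58 were Helz2 and Parp12, at 0.0873 and 0.0957 against a median of 0.824. Dhx58 had Herc6, Dtx3l and Ifi204, Tlr3 had Herc6, Helz2 and Ube2l6, and Zbp1 had Gbp7, Gm20559 and Rtp4 as nearest genes. For Adar they were Trim25, Znfx1 and Pml, and for Eif2ak2 they were Ifi211, Irf9 and Slfn9. Most of these genes are known to be interferon-inducible. Among the 9 themselves, Ddx58 and Tlr3 were the closest of the 7, at 0.178, while Mavs and Tbk1 differed from each other by 0.156 and from Ifih1 by 0.909 and 0.870. Each profile has 6 points, so likeness is a description.

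Partners of MAVS and TBK1, from the ubiquitin ligases upstream to the interferon regulatory factors downstream, had a median log2 change of 0.07. Of 27 such genes, all tested, 0 passed either edgeR test in either direction. Among all tested genes 2.28% passed with the block and 0.0% without it. Without the block 7 of the 27 had an unadjusted p under 0.05, 6 on the higher side and 1 on the lower. At that p, 5.50% of all tested genes were on the higher side and 588 of 13044 on the lower. Ddx60, Irf7 and Irf5 had the largest fitted changes of the 27. Irf7, the factor that amplifies interferon production, stood at 15.5, 99.1 and 73.6 CPM in the knockout and 29.7, 30.5 and 9.02 CPM in the control (edgeR blocked adjusted p = 0.236). The helicase cofactor gene Ddx60 stood at 2.97, 6.11 and 6.38 CPM in the knockout and 3.38, 1.56 and 0.617 CPM in the control (blocked adjusted p = 0.124). Irf5, a relative of Irf7, was at 2.37, 4.55 and 4.62 CPM in the knockout and 1.72, 2.18 and 2.30 CPM in the control, groups that did not overlap (blocked adjusted p = 0.0585). Irf3, the constitutive factor that TBK1 phosphorylates, averaged 0.805 of the control level in the blocked fit (adjusted p = 0.0865), and Tnfaip3, which encodes the inhibitor A20, 1.59 times (adjusted p = 0.0858).

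Of the other Toll-like receptors, Tlr2, Tlr4 and Tlr5 were read well enough to be tested; in all, 11 of the 20 genes of the receptor and adaptor list had enough reads to be tested. Of these 11, 0 passed either edgeR test, where 2.28% of all tested genes passed with the block and 0.0% without it. An unadjusted p under 0.05 without the block was found for 2, Unc93b1 and Tlr4, both on the higher side, against 5.50% of all tested genes on that side. Tlr4, the lipopolysaccharide receptor, had the most reads of the receptors tested, at 22.9, 24.4 and 26.6 CPM in the knockout and 18.3, 21.0 and 19.5 CPM in the control (blocked adjusted p = 0.118). Tlr2, a receptor of bacterial lipoproteins, lay between 6.48 and 9.86 CPM over all 6 libraries. Unc93b1, which carries TLR3 and other nucleic acid receptors to endosomes, stood at 1.43, 2.72 and 3.85 CPM in the knockout and 0.996, 1.34 and 1.35 CPM in the control (blocked adjusted p = 0.0592). For Tlr4 and Unc93b1 every knockout library exceeded every control library, as for 7.49% of all tested genes. Tlr8, Tlr11 and Tlr12 had no reads in any library.

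Cgas, the cytosolic DNA sensor, and Ripk3, the death kinase that ZBP1 engages, rose in the blocked test and did so in all 3 pairs. Cgas had 290, 286 and 314 reads in the knockout and 157, 145 and 160 reads in the control, so each knockout library stood well above all controls. Its blocked log2 change was 0.93 ± 0.11 (SE), 1.91-fold, with an adjusted p of 0.0162, and 0.134 without the block. Ripk3 had 9.31, 8.49 and 9.73 CPM in the knockout and 5.09, 4.86 and 5.44 CPM in the control. The blocked fit gave 1.79-fold, a log2 change of 0.84 ± 0.13 (SE), with an adjusted p of 0.0242, and 0.177 without the block. Pair 1 had log2 ratios of 0.87 for Cgas and 0.86 for Ripk3, where Ifih1 had 0.25 and 6 other sensors lay below 0, and neither gene was called without pair 3 (edgeR blocked adjusted p = 0.0611 and 0.0667), a fit that called 0 of all tested genes and left the folds at 1.88 and 1.77. DESeq2 without the block called both (adjusted p = 8.1e-05 and 0.0133). limma-voom called neither (adjusted p = 0.154 and 0.194), nor did unblocked edgeR with DESeq2 size factors, with a mean of at least 5 CPM or without any single library. With no filter, edgeR called Cgas but not Ripk3 (adjusted p = 0.0095 and 0.0550). Cgas was the 1 call among 14 tested genes of DNA sensing and nucleic acid clearance, whose median log2 change was 0.11, and Ripk3 the 1 call among 6 genes of the ZBP1 death pathway, where 1.43% of all tested genes were called higher. Tmem173, which encodes the cGAS partner STING, had a log2 change of 0.14 (edgeR adjusted p = 0.924). Trex1 is listed at 0 in every library, and all of its exonic bases are shared with Atrip on the same strand.

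Other double-stranded RNA-binding proteins and the eIF2 machinery that PKR acts on showed no call in either edgeR test. Of 15 RNA-binding genes 14 were tested, with a median log2 change of -0.01 and 0 called, where 2.28% of all tested genes were called with the block. Without the block, 5.50% of all tested genes had an unadjusted p under 0.05 on the higher side and 588 of 13044 on the lower side. Of the 14, 1 had such a p, on the lower side. That gene was Adarb1, which encodes the second editing enzyme, ADAR2, at 31.9, 30.4 and 28.4 CPM in the knockout and 39.9, 37.8 and 37.7 CPM in the control (blocked adjusted p = 0.0786). Of 16 genes for eIF2 kinases, eIF2, eIF2B and its regulators, all tested, the median log2 change was 0.04, and 0 had an unadjusted p under 0.05 without the block. Ppp1r15a, which encodes the phosphatase subunit GADD34 and reverses PKR's mark on eIF2 alpha, was at 42.7, 56.7 and 52.2 CPM in the knockout and 40.5, 42.2 and 48.6 CPM in the control (blocked adjusted p = 0.300).

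**Figure D4:**
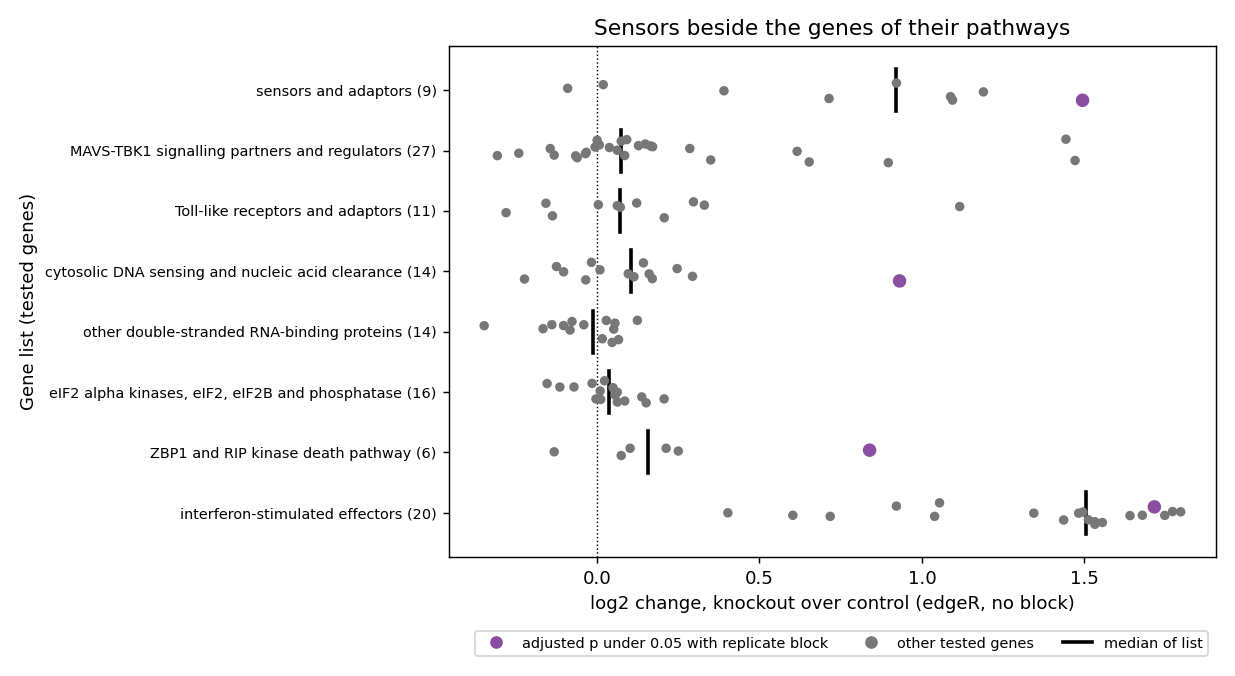
Log2 change, knockout over control, of each tested gene in the 9 sensors and adaptors and in 7 lists of related genes (edgeR without the block); purple points have an adjusted p under 0.05 in the blocked fit, and black bars mark medians. The sensors and adaptors have a median of 0.92 and the interferon-stimulated effectors lie furthest right, while medians of the other lists lie between -0.01 and 0.16.

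The interferon genes that these sensors control were at the floor of detection. Of 20 genes for interferons alpha, beta, epsilon, kappa, lambda and zeta, 16 had no reads, and the other 4 together had 6 reads in the knockout libraries and 2 in the control libraries. Ifnb1, the interferon beta gene, had 1, 1 and 2 reads in knockout replicates 1, 2 and 3 and 0 in each control library. A count of 0 allows up to 3 reads, or 0.165 to 0.168 CPM in these libraries, so no difference was detectable at this depth. Genes induced by interferon were read in all libraries: of 20 interferon-stimulated effectors, 1 passed the blocked test as an increase and 0 the unblocked one, where 15 had an unadjusted p under 0.05, all on the higher side. Over all tested genes, 1.43% were called higher with the block and 5.50% were higher at that unadjusted p. The 1 gene called was Oasl1, with 39.2, 89.4 and 89.5 CPM in the knockout and 28.3, 18.4 and 19.7 CPM in the control (blocked 3.14-fold, adjusted p = 0.0291). Its unadjusted edgeR p was 0.00014 without the block and 0.00022 with it. Without pair 3 Oasl1 was 2.57-fold higher with a blocked adjusted p of 0.0977, in a fit that called 0 of all tested genes. DESeq2, edgeR with no filter and edgeR without knockout replicate 1 called Oasl1 (adjusted p = 0.0116, 0.00024 and 0.00918). It was not called by limma-voom (adjusted p = 0.187), or by edgeR with DESeq2 size factors (0.146) or with a mean of at least 5 CPM (0.196). Nor was it called by edgeR without any other single library (0.166 to 0.475). In pair 1, 19 of the 20 had a log2 ratio below 0 with ratios above 0 in pairs 2 and 3, the exception being Oasl1; 9.75% of tested genes had that combination.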

How the data were processed

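The authors deposited 1 table of raw counts, whole reads per Ensembl gene in 6 columns, with no normalization. STAR, featureCounts, DESeq and build mm10 are named in the submitters' processing notes; for versions, annotation release, strand setting and the rule for shared reads, nothing is stated (not given in the sources used here). Columns were matched to samples by the names in the titles. Symbols and coordinates came from GENCODE M21 (GRCm38), which matched 55230 of 55471 identifiers. Strand use is unknown, so reads of overlapping and antisense genes cannot be told apart.

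Counts were fitted over all 13044 genes left by edgeR's low-count filter, with TMM scaling and the two-sided quasi-likelihood test (R 4.3.3, edgeR 4.0.16), Benjamini-Hochberg adjustment and a threshold of 0.05. Intervals of log2 changes are 95% and use the fit's moderated degrees of freedom. Logged CPM used a prior count of 2. DESeq2 1.42.0, limma-voom (limma 3.58.1), other scaling and filters, and fits without single libraries or pairs were alternatives. Only the edgeR fits with and without the block were run on simulated counts, and the outcome is not reported here. Their spread followed the trend of the blocked fit over expression level, not that of each gene. Exact permutation tests used scipy 1.17.1.

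Replicate numbers were treated as pairs because deviations from the group means correlated at 0.150, 0.464 and 0.383 for libraries of the same number, above the limit of 0.1. Other correlations lay between -0.446 and 0.0531. Deviations from a group mean cancel out within the group, so these correlations are not independent of each other. The pairing was read from the same data that the block was fitted to. The labels state no pairing, and both fits were already known from earlier work on these data. No libraries of a group agreed within sampling noise (chi-square per degree of freedom at least 21.6). Members and lists were chosen with earlier results of these data known. Beside the 9 members, the rule named up to 3 genes per list with the smallest p in each edgeR fit, not all of which are described, and the 3 nearest profiles, of which 1 is not reported here. Other genes, such as Tmem173, Trex1 and Ifnb1, were named after their values were seen.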

Additional observations from a re-analysis of the deposited data

How the results depend on the processing

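Counts over all genes depended on the test. Against 0 genes higher and 0 lower in the unblocked edgeR test, the replicate block gave 187 and 111, DESeq2 93 and 40, and no filter on low counts 62 and 12; DESeq2 size factors, limma-voom and a mean of at least 5 CPM gave 0 and 0. Leaving out single libraries gave 0 to 30 higher and 0 to 1 lower. With the block, leaving out pair 1, 2 or 3 gave 507, 140 and 0 higher and 207, 54 and 0 lower. Of the 9 sensor genes, 1 was called higher with the block (Ifih1) and 1 without a filter (Ifih1), 0 to 2 without single libraries, and 7, 1 and 0 with the block and without pair 1, 2 or 3; 0 were called lower in any fit. Without single libraries the log2 change of Tbk1 ran from -0.012 (without knockout replicate 1, a change of sign) to 0.0609, and it changed sign to -0.0021 with the block and without pair 3; edgeR's adjusted p was 0.998 and 0.992 at the 2 changes of sign. The other 8 genes kept their direction in every fit made, but Zbp1 was not tested at a mean of at least 5 CPM. The cause of these differences was not tested. The replicate block changed no call among the 9 other than that of Ifih1. Depth limits Zbp1 most, with 15 to 111 reads per library.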
